A study of Cucurbita pepo with 18 samples.

Results

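The late step of hulled seed coat development was followed by comparing seed coats of hulled (H) pumpkins, *Cucurbita pepo*, at 20 days after pollination (DAP) with those at 10 DAP. It used 6 of the 18 RNA-seq libraries of the series, all 3 hulled libraries of each of these stages, and took every gene of the count table. Of 29484 features, which are 27868 annotated genes and 1616 loci outside the annotation, 22105 had enough counts to be tested. H bears a lignified hull, and hull-less (HL) pumpkins, which carry a mutation of the *CpNST1* gene, form a coat without it. H and HL were the parents of the study's F2 population, and each was a single accession. The HL libraries at 20 and 10 DAP (3 a stage) were used to see where the hulled change differed. Hulled libraries at 5 DAP gave means to set beside those at 10 DAP. The HL and 5 DAP libraries also entered the fits of 16 and 18 libraries and the scaling of CPM. The tissue was whole seed coat in every library, and several cell layers were therefore measured together.

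Layers of the seed coat have different fates. The hull hardens where cells beneath the epidermis, the sclerenchyma among them, build a secondary cell wall (SCW) inside the primary wall, whereas the inner chlorenchyma is green. Cellulose, xylan, and lignin are the usual components of an SCW. By the study's staining of hulled seed coats, lignin lay in the pitted subepidermal and pitted parenchyma layers, and sclerenchyma walls were mainly cellulose. In *Arabidopsis*, NAC and MYB transcription factors switch on the CesA4, CesA7, and CesA8 subunits of the SCW cellulose synthase, the xylan glycosyltransferases, and the enzymes that make monolignols, the building blocks of lignin. The coat is maternal tissue that also passes sugars to the embryo and endosperm it encloses.

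The total count was 15030843, 13827773, and 15224636 in 20 DAP replicates 1, 2, and 3, against 17707477, 18443048, and 17349991 at 10 DAP. Replicates correlated across genes with r of 0.967 to 0.975 at 20 DAP and 0.865 to 0.965 at 10 DAP, where the lowest values were those of replicate 1 (0.865 with replicate 2 and 0.906 with replicate 3). In the other 4 groups r was 0.949 to 0.988. 10 DAP replicate 1 therefore stood apart, and many results that turned on it are given with and without it. AGL11, the SEEDSTICK ortholog that marks seed coat and integument, had 1251, 1312, and 1463 CPM (counts per library size after TMM scaling) at 20 DAP, against 896, 707, and 676 CPM at 10 DAP, so this marker was abundant in every library. Of 8 tested markers of seed coat and integument, 1 was called higher and 1 lower, and the lower one was TTG1 with 8.29, 7.98, and 6.40 CPM at 20 DAP and 10.7, 65.1, and 57.5 CPM at 10 DAP. YABBY4 (INNER NO OUTER), of the outer integument, was near 0, with 12, 9, and 4 counts at 20 DAP and 26, 4, and 15 counts at 10 DAP for the copy that was tested. The other copy had 0, 0, and 1 counts at 20 DAP and 62, 4, and 35 counts at 10 DAP.

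Markers of the embryo and endosperm moved with the stage. The summed CPM of 32 such genes was 8944, 6983, and 1373 at 20 DAP and 45.9, 119, and 87.2 at 10 DAP. Replicate 3 thus held far less of this signal than the other 20 DAP libraries, and the markers took 0.141 to 0.933% of the counts of a 20 DAP library. Of 29 markers tested, 24 were called higher and 0 lower at 20 DAP, and 11 of the 32 had no count in any 10 DAP library. Some of these 11 had no or almost no counts at 20 DAP as well. The list also holds a gene named translation initiation factor eIF-2B subunit delta, which was not called (log2 fold change -0.25). Most of the 10 DAP sum came from that gene, an oleosin gene, and an 11S globulin gene (0.854, 72.9, and 46.4 CPM at 10 DAP). The oleosin and globulin genes were not called either. Phloem markers (19 genes) summed to 171, 183, and 154 CPM at 20 DAP, against 246, 227, and 199.6 CPM at 10 DAP. The xylem vessel proteases XCP1 and XCP2 summed to 43.1, 35.7, and 53.7 CPM at 20 DAP, against 11.4, 1.198, and 5.31 CPM at 10 DAP. Only XCP1 was called higher. XCP2 had 1.47, 0.706, and 1.02 CPM at 20 DAP and 2.13, 0.666, and 1.90 CPM at 10 DAP, and was not called. The part of these cell types in the gene results was not tested.

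**Figure D1:**
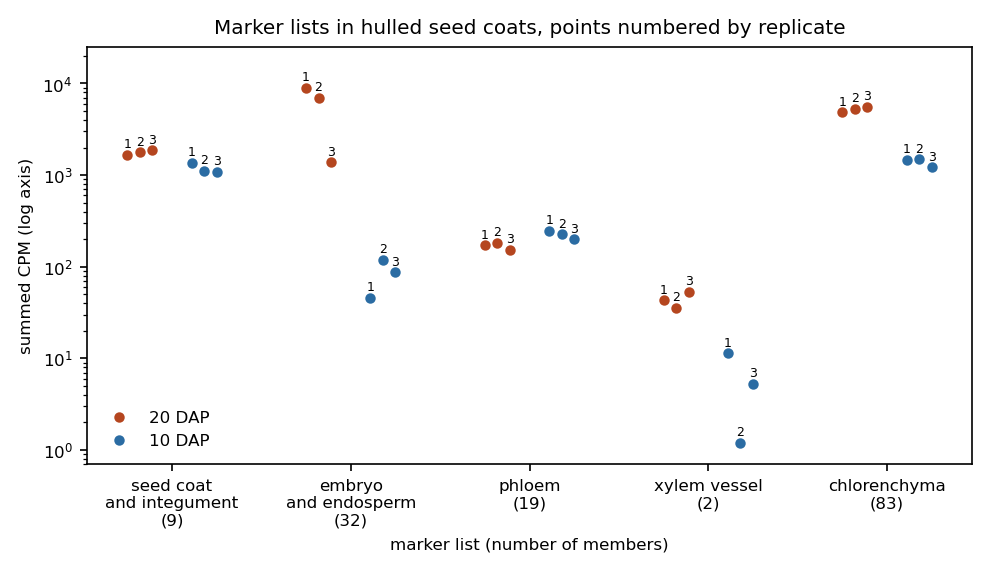
Summed CPM (log axis) of 5 lists of cell type markers in each hulled library, 20 DAP beside 10 DAP, with replicate numbers. The embryo and endosperm sum of 20 DAP replicate 3 (1373 CPM) lies well below those of replicates 1 and 2 (8944 and 6983 CPM) and above all 10 DAP libraries (45.9 to 119 CPM).

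Between these stages genes changed in similar numbers in both directions. In edgeR's quasi-likelihood test, a call needed a p of 0.05 or less after Benjamini-Hochberg adjustment and a log2 fold change (20 over 10 DAP) of 1 or more in size. At these limits 5968 of 22105 genes were called (27.0%), of which 3147 (14.2%) were higher and 2821 (12.8%) were lower at 20 DAP. Genes called higher took 24.3% of all counts at 20 DAP and 4.74% at 10 DAP, whereas genes called lower took 8.29% at 20 DAP and 28.0% at 10 DAP. The median log2 fold change was 2.18 among genes called higher, -1.83 among genes called lower, and -0.02 over all tested genes. A log2 fold change of 3 or more in size was seen in 1053 genes called higher and 564 called lower. In 140 genes called higher every 10 DAP library had 0 counts, and in 25 called lower every 20 DAP library had 0 counts. As these are bulk samples, fewer cells of a type and less RNA per cell cannot be told apart.

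10 DAP replicate 1 was the 10 DAP library with the highest value in 66.5% of genes called higher, against 47.2% of all tested genes, and in 22.9% of genes called lower. Without it 4821 of 22560 genes (21.4%) were called higher and 4040 (17.9%) lower. When 20 DAP replicate 3 stood alone for its stage, in a fit of 16 libraries that shared the spread, 3097 of 25042 genes (12.4%) were called higher and 2376 (9.49%) lower, and 4492 of the 5968 calls were shared. This last fit was chosen after seeing the data. It assumes that replicate 3 varies like the other groups. Set against the 3 hulled 10 DAP libraries only, replicate 3 gave 0 calls by edgeR in either direction, with 5472 genes at an unadjusted p under 0.05.

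**Figure D2:**
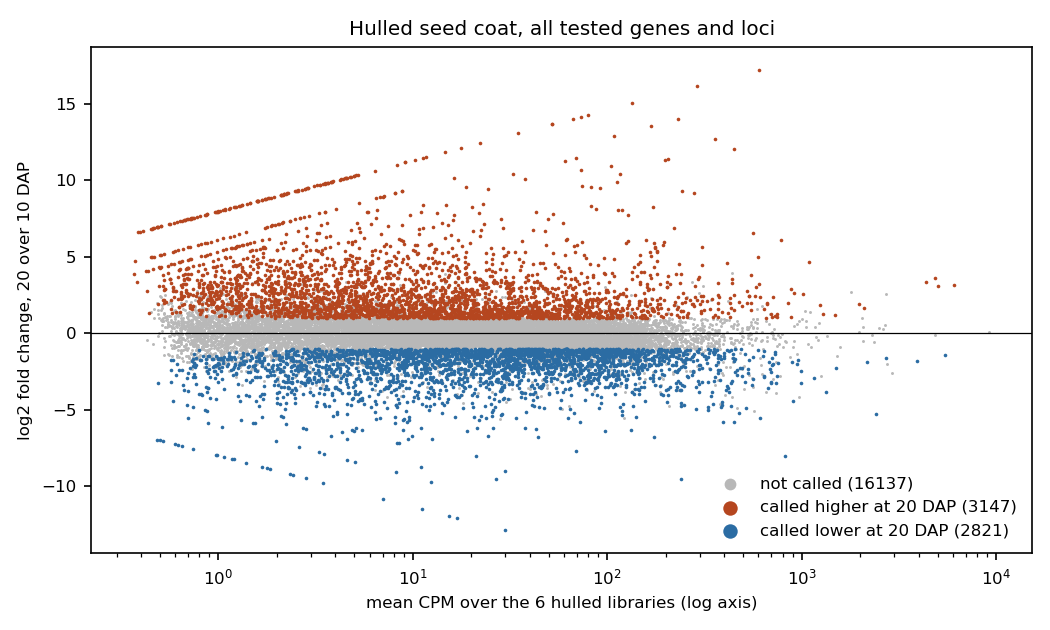
Log2 fold change of each tested gene (20 over 10 DAP, vertical axis) against its mean CPM (log axis), with the 3147 genes called higher and the 2821 called lower at 20 DAP coloured. Called genes are found at all levels, and the band of uncalled genes centres on 0 (median of all genes -0.02).

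The wall genes were taken from a list of 68 orthologs that the study matched to SCW proteins of *Arabidopsis* by similarity and shared domains. Of these, 55 were tested, 11 were called higher (20.0%), and 8 lower (14.5%), with a median log2 fold change of 0.52. Without 10 DAP replicate 1, which had the highest 10 DAP value in 40 of the 55, the count was 26 higher and 7 lower and the median 1.04. The shares called higher, 20.0% with and 47.3% without that library, stand beside 14.2% and 21.4% of all tested genes.

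Cellulose genes split into synthase subunits that rose and an associated glucanase that fell. CesA4 (Cp4.1LG12g10230, LG12:9650072-9654816, plus strand), a catalytic subunit of SCW cellulose synthase, had 780.4, 592, and 685 CPM at 20 DAP, against 256, 76.0, and 181 CPM at 10 DAP. All 20 DAP libraries lay above all 10 DAP libraries (log2 fold change 2.004, SE 0.45, adjusted p 0.0169). CesA7 (Cp4.1LG00g03460, LG00:12944596-12949312, minus strand) had 120.1, 107, and 111 CPM at 20 DAP and 29.0, 4.33, and 7.01 CPM at 10 DAP (log2 change 3.06, SE 0.72, adjusted p 0.0200), also with no overlap. CesA8, the remaining subunit, had 33.7, 22.7, and 34.4 CPM at 20 DAP and 42.0, 4.13, and 15.5 CPM at 10 DAP. Its stages overlapped and it was not called (log2 fold change 0.55, SE 0.74, adjusted p 0.572). Without 10 DAP replicate 1, CesA8 was called higher (log2 fold change 1.63, SE 0.52, adjusted p 0.0326). Of the 7 cellulose genes, 2 were called higher with that library and 5 without it, and 1 lower in both. The shares called higher of 28.6% with and 71.4% without it stand beside 14.2% and 21.4% of all tested genes. The KORRIGAN ortholog (Cp4.1LG14g00660, named endoglucanase 25), a membrane-bound glucanase needed for cellulose synthesis, had 330.4, 297, and 362 CPM at 20 DAP and 466, 1171, and 1151 CPM at 10 DAP, a fall of -1.49 on the log2 scale (SE 0.38, adjusted p 0.0241). The calls of CesA4, CesA7, and KORRIGAN were lost when any one 20 DAP library or 10 DAP replicate 3 was left out (KORRIGAN also without 10 DAP replicate 2), at adjusted p of 0.0518 to 0.0966.

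Among 11 xylan genes, 1 was called higher and 2 lower (9.09% and 18.2%, beside 14.2% and 12.8% of all genes). F8H/FRA8 (Cp4.1LG16g04950, LG16:6094284-6096569, plus strand), a glycosyltransferase of xylan synthesis, had 209, 170.1, and 189.7 CPM at 20 DAP and 53.6, 6.66, and 23.6 CPM at 10 DAP (log2 change 2.76, SE 0.70, adjusted p 0.0249). The ortholog of IRX9L, a xylosyltransferase of the xylan backbone, had 12.3, 14.7, and 14.98 CPM at 20 DAP, below the 25.1, 58.8, and 55.1 CPM at 10 DAP (log2 change -1.72, SE 0.33, adjusted p 0.0104). The ortholog of RWA2, which acetylates wall polysaccharides, also fell (-1.85, SE 0.41, adjusted p 0.0164). IRX9, the family member known from SCW xylan, had 139, 105, and 128 CPM at 20 DAP and 64.0, 8.39, and 28.0 CPM at 10 DAP, and missed the threshold (log2 fold change 1.89, SE 0.67, adjusted p 0.0645). F8H/FRA8 and RWA2 lost their calls without 10 DAP replicate 3 or any one 20 DAP library, at adjusted p of 0.0568 to 0.0892. Without 10 DAP replicate 1, 5 of the 11 were called higher (45.5%, beside 21.4% of all genes) and 2 lower. IRX9 was then among the higher (log2 fold change 2.78, SE 0.49, adjusted p 0.00331).

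Of 10 lignin genes 3 were called higher, 1 was called lower, and 6 were not called (beside 14.2% higher and 12.8% lower of all tested genes), with a median of 1.30. CCR1 (Cp4.1LG03g08920), which makes the monolignol aldehydes, had 13.7, 17.7, and 17.03 CPM at 20 DAP and 0.0534, 0, and 0 CPM at 10 DAP. With a single 10 DAP count, the ratio of summed levels was 788 (95% counting interval 141 to 31186, adjusted p 0.000633). C3H1, a hydroxylase of the monolignol ring, had 64.9, 68.6, and 63.8 CPM at 20 DAP and 29.7, 15.8, and 28.7 CPM at 10 DAP (log2 change 1.41, SE 0.26, adjusted p 0.00872). These 2 calls survived the loss of any single library. The LAC11 ortholog, a laccase-type oxidase named L-ascorbate oxidase in the file, was called higher from low values (1.02, 1.48, and 1.47 CPM at 20 DAP, 0.320, 0.0666, and 0.393 CPM at 10 DAP), and its call was lost without 10 DAP replicate 3 or any one 20 DAP library at adjusted p of 0.0541 to 0.0847. Caffeoyl shikimate esterase (CSE) fell, with 297, 317, and 290.4 CPM at 20 DAP against 708, 479, and 648 CPM at 10 DAP (log2 change -1.02, SE 0.21, adjusted p 0.0131), and its call was lost in 5 of the 6 sets that left out a library. Without 10 DAP replicate 1, 7 of the 10 lignin genes were called higher and 0 lower, beside 21.4% and 17.9% of all tested genes.

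The fasciclin-like arabinogalactan protein FLA12 (Cp4.1LG02g12840, LG02:11508798-11509801, plus strand), a wall glycoprotein of cells with an SCW, had 98.2, 96.8, and 89.2 CPM at 20 DAP and 1.81, 0.333, and 0.459 CPM at 10 DAP. The stages lay far apart (log2 fold change 6.71, SE 0.63, adjusted p 0.00146), and the call held without any single library. FLA11 had 72.9, 55.4, and 61.7 CPM at 20 DAP and 36.4, 3.06, and 20.4 CPM at 10 DAP and was not called (log2 fold change 1.66, SE 0.76, adjusted p 0.124). Without 10 DAP replicate 1, FLA11 was called higher (log2 fold change 2.44, SE 0.68, adjusted p 0.0197).

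Of 26 regulator orthologs 13 were tested, 4 were called higher (30.8%, beside 14.2% of all genes), and 0 lower (beside 12.8%). Without 10 DAP replicate 1, 6 were called higher (46.2%, beside 21.4% of all genes) and 0 lower. *CpNST1* itself (Cp4.1LG12g04350, LG12:3411999-3413380, plus strand), the NAC factor that turns on SCW genes, had 42.3, 27.7, and 31.6 CPM at 20 DAP and 58.6, 4.06, and 29.1 CPM at 10 DAP. The stages overlapped and no difference was detected (log2 fold change 0.14, SE 0.80, adjusted p 0.902). Without 10 DAP replicate 1, *CpNST1* was not called either (log2 fold change 1.04, SE 0.69, adjusted p 0.234). An ortholog of LBD18 and LBD30 (Cp4.1LG17g02570), LOB-domain factors of xylem differentiation in *Arabidopsis*, had 94.6, 79.8, and 136 CPM at 20 DAP and 7.58, 0.466, and 4.98 CPM at 10 DAP (log2 change 4.56, SE 0.87, adjusted p 0.0102). The ortholog of the MYB103 group (named MYB86) had 101, 78.3, and 100.4 CPM at 20 DAP and 12.5, 35.1, and 33.5 CPM at 10 DAP (log2 change 1.79, SE 0.39, adjusted p 0.0154), a call lost without 20 DAP replicate 1 or 3 at adjusted p of 0.0537 and 0.0549. A VND7-group NAC gene (Cp4.1LG00g05400), of the vessel-forming kind, had 0.765, 1.34, and 0.704 CPM at 20 DAP and 0 counts in the 10 DAP libraries, at least 4.69-fold higher against a floor of 3 counts. The MYB52/54 ortholog was called higher with 2.42, 2.19, and 2.37 CPM at 20 DAP against 1.28, 0.333, and 0.393 CPM at 10 DAP (log2 change 1.76, SE 0.56, adjusted p 0.0473), a call lost in 5 of the 6 sets that left out a library. MYB46, a direct target of NST factors in *Arabidopsis*, did not pass the count filter and was not tested. It had 0.191, 0, and 0.192 CPM at 20 DAP (3, 0, and 3 counts). At 10 DAP it had 11.1, 0.599, and 3.60 CPM (208, 9, and 55 counts), with no overlap. Over the sets that left out a library, 2 to 6 regulators were called higher and 0 to 2 lower. DESeq2 called 5 higher and 1 lower.

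Cytoskeleton and trafficking orthologs ran the other way, with 0 of 12 called higher and 4 lower (33.3%, beside 12.8% of all genes). MIDD1 (Cp4.1LG10g04920), which in *Arabidopsis* acts where microtubules are cleared for wall pits, had 28.0, 15.7, and 25.6 CPM at 20 DAP and 52.8, 144, and 101 CPM at 10 DAP (log2 change -2.10, SE 0.41, adjusted p 0.0110). MAP65-8, a microtubule bundling protein, fell by 1.36 (SE 0.23, adjusted p 0.00740). SAC1, a phosphoinositide phosphatase, fell by 1.03 (SE 0.17, adjusted p 0.00644), and without 10 DAP replicate 2 or 20 DAP replicate 3 it no longer reached the fold limit. WALLS ARE THIN 1 had 0 counts in all 20 DAP libraries and 1.28, 5.19, and 1.90 CPM at 10 DAP, at least 13.2-fold lower.

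**Figure D3:**
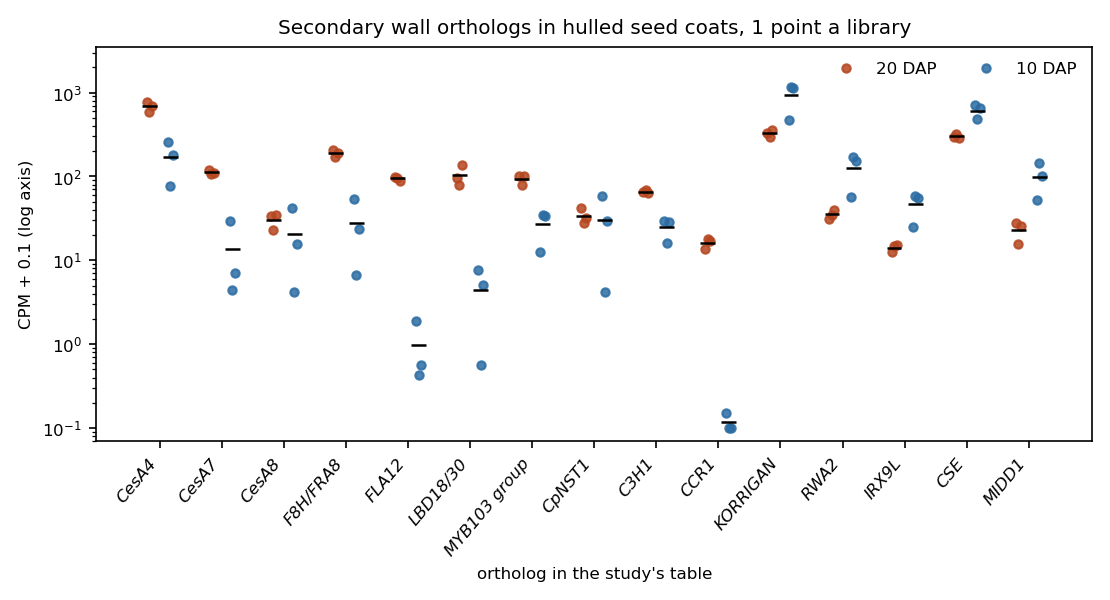
CPM plus 0.1 (log axis) of 15 SCW orthologs in each hulled library, 20 DAP beside 10 DAP, with a line at the mean. CesA4, CesA7, F8H/FRA8, FLA12, and CCR1 lie higher in every 20 DAP library than in any 10 DAP library, KORRIGAN and MIDD1 lie lower, and CesA8 and CpNST1 overlap.

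Families of enzymes that couple monolignols or remodel primary walls had members called in both directions, except laccases (0 of 3 tested called higher, 1 lower). Peroxidase N1 had 348, 388, and 498 CPM at 20 DAP and 0, 0.200, and 0.262 CPM at 10 DAP (log2 change 11.39, SE 0.74, adjusted p 0.000734), whereas Peroxidase 21 had 6.25, 8.97, and 3.52 CPM at 20 DAP against 402, 199, and 223 CPM at 10 DAP (log2 change -5.46, SE 0.50, adjusted p 0.00139). Neither pair of stages overlapped. In all, 5 of 25 heme peroxidases, which can couple monolignols, were called higher and 3 lower (beside 14.2% and 12.8% of all genes). Laccase-12 had 0.0638, 0.0706, and 0 CPM at 20 DAP and 41.7, 0.932, and 23.4 CPM at 10 DAP, a call lost without any one 20 DAP library at adjusted p of 0.0538 to 0.0568. Laccase-17, whose family oxidises monolignols, was at 43.6, 41.5, and 33.3 CPM at 20 DAP and 527, 40.5, and 116 CPM at 10 DAP and was not called (adjusted p 0.0635). Of 10 dirigent proteins, which steer monolignol coupling, 1 was called higher and 4 lower (beside 14.2% and 12.8% of all genes). The higher one was Dirigent protein 20, with 49.1, 59.7, and 67.9 CPM at 20 DAP against 24.6, 14.8, and 12.7 CPM at 10 DAP.

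Among expansins, which loosen walls during growth, 4 of 21 were called higher and 5 lower (beside 14.2% and 12.8% of all genes). Expansin-A2 had 23.0, 11.4, and 26.4 CPM at 20 DAP and 0.694, 0, and 0.328 CPM at 10 DAP (log2 change 5.80, SE 0.84, adjusted p 0.00443). Expansin-like B1 had 0 counts at 20 DAP and 46.0, 12.1, and 34.1 CPM at 10 DAP, at least 145-fold lower. Xyloglucan endotransglucosylases (XTHs), which cut and rejoin the xyloglucan of primary walls, had 2 of 21 called higher and 4 lower. These counts stand beside 14.2% and 12.8% of all genes, and the median of the XTHs was -1.21. The XTH Cp4.1LG18g06260 had 1.85, 1.55, and 0.896 CPM at 20 DAP, far below the 47.3, 67.6, and 84.8 CPM at 10 DAP (log2 change -5.52, SE 0.37, adjusted p 0.000740).

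Of 82 pectin-modifying genes 15 were called higher and 16 lower (18.3% and 19.5%, beside 14.2% and 12.8% of all genes). Pectinesterases, which demethylate pectin, had 4 of 34 called higher and 10 lower, polygalacturonases 6 of 28 and 4, and pectate lyases 4 of 14 and 1. The polygalacturonase Cp4.1LG07g00080 had 53.3, 47.2, and 51.1 CPM at 20 DAP and 2.08, 1.26, and 0.786 CPM at 10 DAP (log2 change 5.17, SE 0.36, adjusted p 0.000826). A pectinesterase/inhibitor gene (Cp4.1LG07g05500) had 18.7, 24.6, and 22.4 CPM at 20 DAP and 0.0534, 0, and 0.197 CPM at 10 DAP (adjusted p 0.000903).

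Kinesins and cyclins were the genes of cell division with the most calls. Of 79 kinesins, the microtubule motors, 36 were called higher (45.6%, beside 14.2% of all genes) and 3 lower, with a median log2 fold change of 1.11. By class, the counts were 4 of 5 for KIN-5, which slides spindle microtubules apart, 6 of 8 for KIN-12, which works at the phragmoplast, and 7 of 18 for KIN-14. In 35 of the 36, the hulled mean at 5 DAP was also above that at 10 DAP. The summed level of all 91 kinesins moved less, at 2186, 1919, and 1962 CPM at 20 DAP and 2055, 1489, and 1694 CPM at 10 DAP. Without 10 DAP replicate 1, 44 kinesins were called higher, and in the 16-library fit of 20 DAP replicate 3, 32 were. Between 17 and 44 were called higher over the settings tried, apart from the fit that called 0 genes of any kind.

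Among single kinesins, KIN-UB had 24.8, 18.8, and 15.2 CPM at 20 DAP and 4.43, 2.86, and 3.21 CPM at 10 DAP (log2 change 2.48, SE 0.28, adjusted p 0.00224). KIN-UC, of the same ungrouped class, went the other way, with 6.19, 5.29, and 3.84 CPM at 20 DAP and 31.7, 21.3, and 25.4 CPM at 10 DAP (log2 change -2.35, SE 0.26, adjusted p 0.00202). Of 21 cyclins A and B, which drive mitosis, 11 were called higher and 1 lower (median 1.26). D cyclins, which act at entry into the cycle, had 10 of 20 called higher and 2 lower, and Cyclin-D1-1 was among the lower with 3.57, 2.26, and 1.73 CPM at 20 DAP against 24.5, 25.0, and 19.7 CPM at 10 DAP. Genes named for cyclin-dependent kinases had 3 of 25 called higher and 6 lower (median -0.32). Among the higher, the mitotic kinase CDKB2-2 had 11.7, 20.0, and 10.6 CPM at 20 DAP and 0.373, 0.532, and 0.720 CPM at 10 DAP (log2 change 4.70, SE 0.41, adjusted p 0.00123). All cyclin and cyclin-dependent kinase genes had 24 of 89 called higher and 12 lower (27.0% and 13.5%, beside 14.2% and 12.8% of all genes). Their summed level was lower at 20 DAP, with 2918, 2820, and 2776 CPM against 3039, 4775, and 4059 CPM at 10 DAP. DNA replication genes had 9 of 39 called higher and 1 lower (23.1% and 2.56%, beside 14.2% and 12.8% of all genes), with a median of 0.96. The number called higher ran between 2 and 20 over the settings other than the fit with 0 calls. Replication factor C subunit 3, part of the clamp loader, had 12.7, 14.3, and 13.1 CPM at 20 DAP and 2.93, 0.466, and 1.57 CPM at 10 DAP (log2 change 2.99, SE 0.59, adjusted p 0.0112).

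Core histones had 7 of 46 called higher (15.2%, close to the 14.2% of all genes) and 2 lower. Histone H4 (Cp4.1LG02g12920) had 33.4, 28.1, and 28.3 CPM at 20 DAP and 10.1, 5.19, and 5.04 CPM at 10 DAP (log2 change 2.13, SE 0.32, adjusted p 0.00484), while the replacement histone H3.3 was at 589.5, 713, and 659.9 CPM at 20 DAP and 577, 688, and 545 CPM at 10 DAP (log2 change 0.12, SE 0.19). Tubulins had 6 of 24 called higher (25.0%, beside 14.2% of all genes) and 0 lower (beside 12.8%). A beta-tubulin (Cp4.1LG18g02050) had 253, 198, and 257 CPM at 20 DAP and 88.9, 19.9, and 56.1 CPM at 10 DAP (log2 change 2.10, SE 0.52, adjusted p 0.0233), with the call lost without 10 DAP replicate 3 or any one 20 DAP library at adjusted p of 0.0631 to 0.0795. The beta-6 and gamma-2 chains rose without such a loss (1.37, SE 0.20, and 1.38, SE 0.21). The beta-8 chain was at 577, 659.7, and 634 CPM at 20 DAP and 1159, 1041, and 1328 CPM at 10 DAP, short of the fold limit (log2 fold change -0.91, SE 0.20, adjusted p 0.0163).

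Cytosolic ribosomal proteins lay slightly above 0 as a group. Of 305 tested, 268 had a log2 fold change above 0, 42 were called higher (13.8%, close to the 14.2% of all genes), and 0 were called lower, and the median was 0.56. They summed to 23569, 30918, and 27373 CPM at 20 DAP and 18701, 17394, and 17867 CPM at 10 DAP, with no overlap. The 40S protein S8 had 98.6, 127, and 106 CPM at 20 DAP and 28.5, 36.7, and 31.5 CPM at 10 DAP (log2 change 1.78, SE 0.16, adjusted p 0.00140). The 60S protein L19-3 had 419, 554, and 522 CPM at 20 DAP and 296, 299.5, and 312 CPM at 10 DAP, below the fold limit (0.72, SE 0.18, adjusted p 0.0231). Plastid-type ribosomal proteins had 11 of 98 called higher and 1 lower (11.2% and 1.02%, beside 14.2% and 12.8% of all genes). Under upper-quartile scaling the median of all tested genes was 0.10, against -0.02 under TMM, and the list medians moved with it.

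Photosystem and light-harvesting genes were the list with the largest share called higher among lists of 10 or more tested genes. Of 65 tested, 41 (63.1%) were called higher and 1 lower, with a median of 1.80, and between 37 and 45 were called higher over the settings tried, again apart from the fit with 0 calls. The summed level was 4869, 5257, and 5575 CPM at 20 DAP and 1471, 1485, and 1218 CPM at 10 DAP. By complex, 14 of 17 photosystem I genes, 9 of 20 photosystem II genes, and 18 of 25 chlorophyll-binding genes were called higher. Photosystem I subunit V (Cp4.1LG14g07740) had 79.0, 92.7, and 103 CPM at 20 DAP and 6.46, 4.33, and 3.27 CPM at 10 DAP (log2 change 4.28, SE 0.30, adjusted p 0.000826). Chlorophyll a-b binding protein 151 had 403, 388, and 485 CPM at 20 DAP and 93.4, 95.6, and 69.1 CPM at 10 DAP (log2 change 2.31, SE 0.21, adjusted p 0.00136). These genes are also the chlorenchyma marker list, so more green tissue and more transcript per green cell cannot be told apart. Enzymes of the Calvin cycle, which fixes carbon with the products of the light reactions, had 2 of 13 called higher and 2 lower. These shares of 15.4% each stand beside 14.2% and 12.8% of all genes. Rubisco small chain (Cp4.1LG01g13630) was among the higher, with 39.999, 52.9, and 31.6 CPM at 20 DAP and 5.55, 5.06, and 3.47 CPM at 10 DAP.

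Flavonoid genes had 12 of 23 called higher (52.2%, beside 14.2% of all genes) and 0 lower, with a median of 2.04. A flavonol synthase/flavanone 3-hydroxylase (Cp4.1LG02g10200), which acts on the flavonoid core, had 286, 249.8, and 478 CPM at 20 DAP and 45.0, 10.5, and 12.4 CPM at 10 DAP (log2 change 3.89, SE 0.69, adjusted p 0.00802). Anthocyanidin 3-O-glucosyltransferase 5 had 125, 183, and 135 CPM at 20 DAP and 0 counts at 10 DAP, at least 738-fold higher. The flavonoid glucosyltransferase UFGT3 (Cp4.1LG02g02340) had 359, 233, and 320.4 CPM at 20 DAP and 66.9, 35.1, and 21.3 CPM at 10 DAP (log2 change 2.88, SE 0.46, adjusted p 0.00602). Anthocyanidin reductase, which makes the units of condensed tannins, was at 331, 374, and 319.9 CPM at 20 DAP and 399, 303, and 306 CPM at 10 DAP (log2 change 0.02, SE 0.19).

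Lipid transfer proteins are small secreted proteins that carry lipids to the cell surface. Of 18 tested, 9 were called higher and 3 lower (beside 14.2% and 12.8% of all genes). Genes named non-specific lipid-transfer protein 2 lie together on LG03, and reads of such copies could be shared by the counting. Of these, Cp4.1LG03g15240 had 479, 154, and 559 CPM at 20 DAP and 0.107, 0.133, and 0.197 CPM at 10 DAP, and Cp4.1LG03g15260 had 40.6, 514, and 252 CPM at 20 DAP and 0 counts at 10 DAP. Their neighbour Cp4.1LG03g15320 went the other way, with 45.4, 53.4, and 39.3 CPM at 20 DAP against 829, 105, and 1005 CPM at 10 DAP (log2 change -3.81, SE 0.81, adjusted p 0.0144), a call lost without any one 20 DAP library at adjusted p of 0.0614 to 0.0639.

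GDSL esterases, lipid hydrolases of the surface and wall, had 9 of 44 called higher and 5 lower (20.5% and 11.4%, beside 14.2% and 12.8% of all genes). Of these, Cp4.1LG20g02720 had 92.1, 129.7, and 140.3 CPM at 20 DAP and 0.0534, 0, and 0.0655 CPM at 10 DAP. Genes of cutin, suberin, and wax had 1 of 38 called higher and 7 lower (18.4%, beside 12.8% of all genes). The single one was 3-ketoacyl-CoA synthase 4, an elongase of long fatty acids, with 444, 361, and 459 CPM at 20 DAP and 69.5, 75.3, and 57.0 CPM at 10 DAP (log2 change 2.65, SE 0.20, adjusted p 0.000905). ECERIFERUM 3, of wax alkane synthesis, had 2.81, 2.05, and 1.02 CPM at 20 DAP and 45.1, 60.7, and 40.1 CPM at 10 DAP (log2 change -4.63, SE 0.40, adjusted p 0.00123).

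Gibberellin genes had 20 of 38 called higher (52.6%, beside 14.2% of all genes) and 7 lower (18.4%, beside 12.8%), with a median of 2.86, and summed to 4754, 4505, and 7583 CPM at 20 DAP and 1236, 603, and 633 CPM at 10 DAP. Enzymes of the last steps of gibberellin synthesis led the list, with 3 of 6 genes for 20-oxidases and 11 of 12 for 3-beta-dioxygenases called higher and 0 of either lower. Adjoining 20-oxidase genes on LG09, Cp4.1LG09g01310 (LG09:699543-700883) and Cp4.1LG09g01290 (LG09:700951-720462), both on the minus strand, had much of the signal. Cp4.1LG09g01310 had 841, 982, and 1648 CPM at 20 DAP and 92.9, 6.92, and 9.04 CPM at 10 DAP (log2 change 4.98, SE 1.19, adjusted p 0.0203). Cp4.1LG09g01290 had 1896, 1665, and 2735 CPM at 20 DAP and 208, 12.2, and 21.4 CPM at 10 DAP (log2 change 4.69, SE 1.201, adjusted p 0.0251). In both, 10 DAP replicate 1 lay far above its replicates, and the copies may share reads. Both lost their calls without 10 DAP replicate 3 or any one 20 DAP library, at adjusted p of 0.0517 to 0.0723. Of 7 genes for 2-beta-dioxygenases, which inactivate gibberellins, 3 were called higher and 3 lower. Apart from the fit with 0 calls, 8 to 25 genes of the list were called higher over the settings tried.

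Genes listed by name under ethylene synthesis had 3 of 11 called higher and 3 lower (27.3% each, beside 14.2% and 12.8% of all genes). ACO1 (Cp4.1LG04g02610, LG04:7715404-7717455, plus strand), which makes ethylene from ACC, had 460.3, 520.3, and 693 CPM at 20 DAP and 0.960, 0.799, and 1.05 CPM at 10 DAP (log2 change 9.21, SE 0.31, adjusted p 0.000328). A gene named ACC oxidase homolog 1 (Cp4.1LG03g10080), whose part in ethylene synthesis was not tested, had 5.93, 8.90, and 6.79 CPM at 20 DAP and 39.0, 56.2, and 56.1 CPM at 10 DAP (log2 change -2.80, SE 0.23, adjusted p 0.00115). For auxin, 12 of 90 genes were called higher (13.3%, close to the 14.2% of all genes) and 22 lower (24.4%, beside 12.8%). Carriers had 7 of 16 called higher and 2 lower, whereas auxin response factors had 2 of 33 higher and 10 lower. The efflux carrier PIN1a (Cp4.1LG04g13660) had 64.5, 64.1, and 68.2 CPM at 20 DAP and 4.32, 0.333, and 0.131 CPM at 10 DAP (log2 change 5.30, SE 1.09, adjusted p 0.0129), and the influx carrier Cp4.1LG19g02880 had 0.319, 0, and 0.448 CPM at 20 DAP and 9.02, 18.3, and 10.9 CPM at 10 DAP (log2 change -5.56, SE 0.77, adjusted p 0.00387). Abscisic acid genes had 5 of 35 called higher and 6 lower (14.3% and 17.1%, beside 14.2% and 12.8% of all genes).

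Sugar transport and sucrose cleavage had 8 of 50 called higher and 7 lower (beside 14.2% and 12.8% of all genes). The larger changes were among SWEET exporters (6 of 17 higher, 4 lower). Neighbouring genes on LG18 rose together. SWEET10 (Cp4.1LG18g09250, LG18:8191155-8192783) had 558, 697, and 557 CPM at 20 DAP and 16.8, 13.2, and 5.17 CPM at 10 DAP (log2 change 5.68, SE 0.51, adjusted p 0.00133). SWEET12 (Cp4.1LG18g09230, LG18:8194804-8200993), a gene model that also holds a NAC domain, had 147, 186, and 182 CPM at 20 DAP and 7.36, 8.45, and 7.92 CPM at 10 DAP (log2 change 4.44, SE 0.17, adjusted p 0.000328). Another SWEET12 gene, on LG20 (Cp4.1LG20g02920), had 0 counts at 20 DAP and 34.1, 11.6, and 21.4 CPM at 10 DAP, at least 106-fold lower. Aquaporins, the water channels, had 7 of 35 called higher and 9 lower (20.0% and 25.7%, beside 14.2% and 12.8% of all genes). PIP1-4 had 2636, 3577, and 2671 CPM at 20 DAP and 7324, 9117, and 7446 CPM at 10 DAP (log2 change -1.42, SE 0.32, adjusted p 0.0163, lost without any one 20 DAP library at 0.0570 to 0.0856). PIP2-1 had 138, 88.2, and 172 CPM at 20 DAP and 35.0, 12.98, and 9.50 CPM at 10 DAP (log2 change 2.79, SE 0.56, adjusted p 0.0122).

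Heat shock proteins, chaperones that guard protein folding, were the list with the largest share called lower among lists of 30 or more tested genes, with 22 of 54 (40.7%, beside 12.8% of all genes), 4 higher, and a median of -0.92. They summed to 3308, 3355, and 3904 CPM at 20 DAP and 5318, 9827, and 7914 CPM at 10 DAP. The class IV 22.0 kDa protein had 4.98, 4.38, and 7.11 CPM at 20 DAP and 41.3, 53.9, and 48.8 CPM at 10 DAP (log2 change -3.12, SE 0.23, adjusted p 0.000905). Heat shock factors split, with HSF30 at 9.25, 7.70, and 10.9 CPM at 20 DAP against 82.3, 139, and 131 CPM at 10 DAP, and HSF24 at 107, 112, and 150.1 CPM at 20 DAP against 3.15, 0.666, and 1.179 CPM at 10 DAP. In the 16-library fit of 20 DAP replicate 3, 13 genes of the list were called lower.

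Cell death and senescence genes had 3 of 55 called higher and 5 lower, both shares below those of all genes. Metacaspase-4, a protease of programmed cell death, had 166, 215, and 229 CPM at 20 DAP and 405, 1722, and 1422 CPM at 10 DAP (log2 change -2.53, SE 0.54, adjusted p 0.0144, lost without any one 20 DAP library at 0.0562 to 0.0631). Autophagy-related protein 8B rose, with 42.2, 51.0, and 64.1 CPM at 20 DAP and 24.2, 16.04, and 19.3 CPM at 10 DAP (log2 change 1.40, SE 0.23, adjusted p 0.00649). Of 54 cysteine and aspartic proteases 10 were called higher and 9 lower (18.5% and 16.7%, beside 14.2% and 12.8% of all genes). XCP1, which clears the contents of dying vessels in *Arabidopsis*, had 41.6, 34.9, and 52.7 CPM at 20 DAP and 9.28, 0.532, and 3.41 CPM at 10 DAP (log2 change 3.27, SE 0.85, adjusted p 0.0267). That call was lost without 10 DAP replicate 3 or any one 20 DAP library, at adjusted p of 0.0727 to 0.0964.

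Transcription factor families changed in both directions. NAC factors had 16 of 65 called higher and 7 lower, and a NAC100 gene (Cp4.1LG19g01850) had 184, 185, and 262 CPM at 20 DAP and 0.213, 0.0666, and 0 CPM at 10 DAP (log2 change 10.92, SE 0.63, adjusted p 0.000617). NAC83, which represses vessel formation in *Arabidopsis*, had 1051, 996, and 1241 CPM at 20 DAP and 133, 82.9, and 138 CPM at 10 DAP (log2 change 3.22, SE 0.28, adjusted p 0.00126). Counts higher and lower were 10 and 4 of 30 for MADS-box factors, 22 and 16 of 109 for MYB factors, 12 and 11 of 56 for WRKY factors, 9 and 14 of 57 for AP2/ERF factors, 16 and 10 of 95 for bHLH factors, and 24 and 24 of 126 for homeobox factors. Beside the 14.2% and 12.8% of all tested genes, several of these shares lay close, such as 16.8% and 10.5% for bHLH factors and the 14.7% called lower among MYB factors. AGL62, a MADS-box factor of the endosperm in *Arabidopsis*, had 59.5, 69.6, and 93.3 CPM at 20 DAP and 3.57, 1.06, and 0.786 CPM at 10 DAP (log2 change 5.32, SE 0.62, adjusted p 0.00245). Unlike the storage protein genes, it was not lowest in 20 DAP replicate 3. Zinc-finger homeodomain protein 1 (Cp4.1LG01g09000) had 96.6, 118, and 99.0 CPM at 20 DAP and 0 counts at 10 DAP, at least 523-fold higher. The homeobox gene ATHB-20 had 0.447, 0.212, and 1.73 CPM at 20 DAP and 69.5, 106, and 86.4 CPM at 10 DAP (log2 change -6.74, SE 0.69, adjusted p 0.00172), and a MYB44 gene (Cp4.1LG14g04400) had 8.74, 20.6, and 28.9 CPM at 20 DAP and 177, 622, and 584 CPM at 10 DAP (log2 change -4.56, SE 0.68, adjusted p 0.00485).

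**Figure D4:**
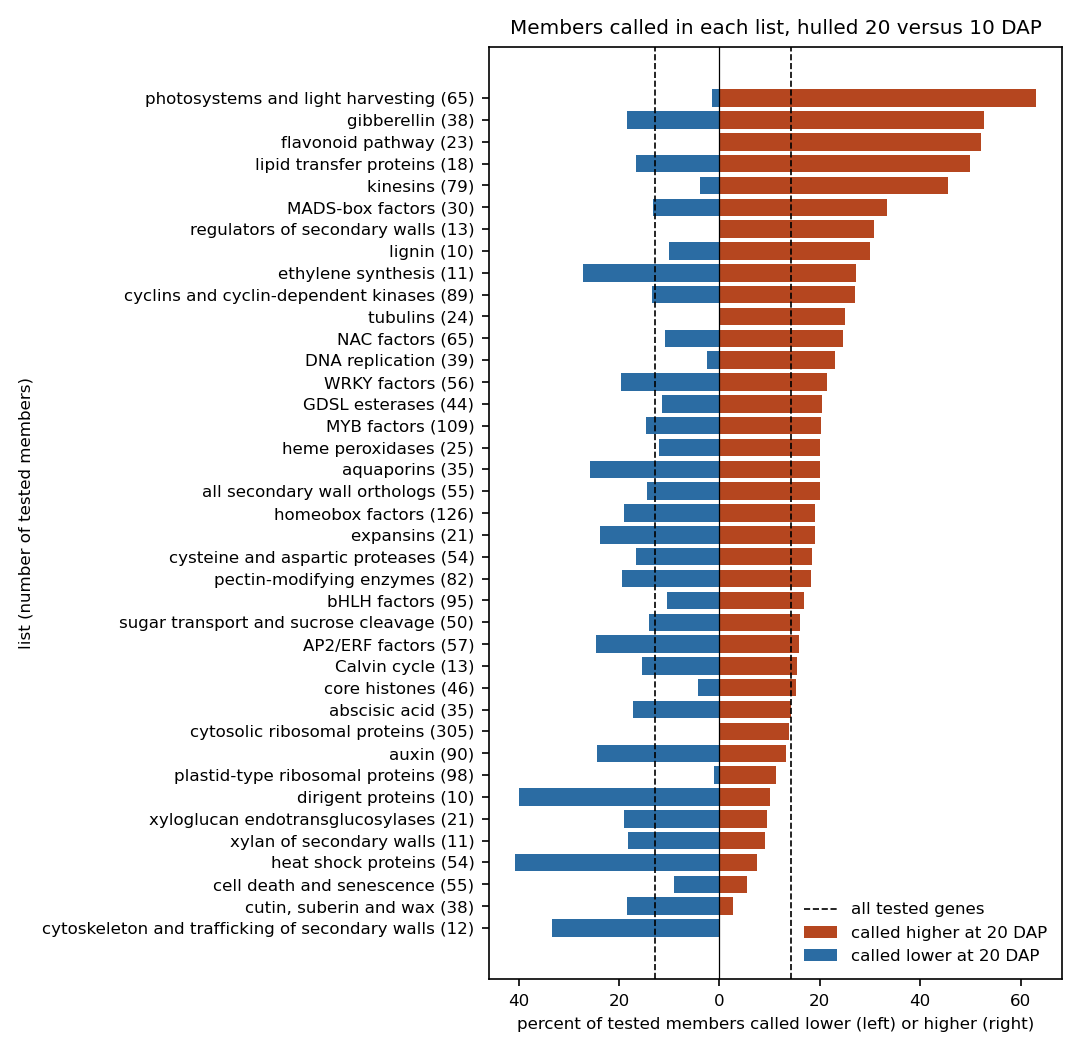
Percent of the tested members of each gene list called higher (right) and lower (left) at 20 DAP, for lists with at least 10 tested genes, with dashed lines at the shares of all genes (14.2% higher, 12.8% lower). Photosystem genes (63.1% higher) and heat shock proteins (40.7% lower) lie far from the dashed lines, and the higher share of cytosolic ribosomal proteins (13.8%) lies next to its line.

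The largest single changes belonged to genes with no or almost no counts at one stage. The 12 highest held 4 genes for seed storage proteins, 2 for oleosins, and 3 for lipid transfer proteins. The 11S globulin gene Cp4.1LG15g00840 had 1896, 1480, and 260.0 CPM at 20 DAP and 0 counts at 10 DAP, at least 6071-fold higher, and a 2S albumin had 848, 740.5, and 159 CPM at 20 DAP and 0 counts at 10 DAP, at least 2917-fold higher. 20 DAP replicate 3 was the lowest 20 DAP library in both, in the same order as the embryo and endosperm markers to which they belong. Over all genes called higher, replicate 3 was below 1/2 of both other 20 DAP replicates in 164 genes (5.21%), against 2.74% of all tested genes. NAC21/22 (Cp4.1LG12g10750), with 52.2, 73.4, and 83.0 CPM at 20 DAP and 0 counts at 10 DAP, did not share that order. At the other end, the deaminase RidA (Cp4.1LG14g07310) had 0 counts at 20 DAP and 37.9, 71.7, and 69.6 CPM at 10 DAP, at least 282-fold lower. A WAT1-related transporter (Cp4.1LG02g03220) likewise had 0 counts at 20 DAP and 37.7, 33.9, and 29.7 CPM at 10 DAP, at least 159-fold lower.

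Per unit of length, the gene with the highest level at 20 DAP was a metallothionein-like protein 2 (Cp4.1LG03g02250), a small metal-binding protein, with a mean of 10752 FPKM (fragments scaled by transcript length and library size) at 20 DAP and 1156 FPKM at 10 DAP. Its levels of 9618, 11692, and 11475 CPM at 20 DAP lay above the 1314, 1058, and 1241 CPM at 10 DAP (log2 change 3.18, SE 0.33, adjusted p 0.00174). Of the 10 genes with the highest mean FPKM at 20 DAP, the unnamed gene Cp4.1LG15g02110 had 12549, 8785, and 5776 CPM at 20 DAP and 1787, 537, and 861 CPM at 10 DAP (log2 change 3.09, SE 0.60, adjusted p 0.0108), and in no hull-less library of these stages did it exceed 1.91 CPM. A gene named GALT6, after a galactosyltransferase of arabinogalactan proteins, had 8379, 7971, and 10598 CPM at 20 DAP and 1588, 221, and 340.2 CPM at 10 DAP (log2 change 3.64, SE 0.85, adjusted p 0.0191), with the call lost without 10 DAP replicate 3 or any one 20 DAP library at 0.0541 to 0.0660. Cp4.1LG03g15420, also unnamed, had 10441, 7090, and 10942 CPM at 20 DAP and 22649, 2588, and 1642 CPM at 10 DAP, and its 10 DAP replicate 1 alone spanned the stages (adjusted p 0.960).

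Genes called higher had a median length of 1510 bases and genes called lower 1880 bases, against 1752 bases over all tested genes. Of the genes called higher, 58.8% had a higher mean at 5 than at 10 DAP in hulled seed coats, against 29.1% of the genes called lower and 46.1% of all tested genes. The next gene along the linkage group was called in the same direction for 17.7% of genes called higher (530 of 2989, beside 14.1% of all next genes called higher) and for 17.2% of genes called lower (456 of 2645, beside 12.4%).

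In hull-less seed coats, the mean at 20 DAP was above that at 10 DAP for 2789 of the 3147 genes called higher in hulled seed coats (88.6%) and below it for 2643 of the 2821 called lower (93.7%), against 51.4% and 48.2% of all tested genes. Whether the hulled change differed from the hull-less one was tested as a contrast over the 12 libraries of both accessions. Embryo and endosperm markers were uneven among these libraries. At 20 DAP they summed to 2974, 253, and 96.3 CPM in hull-less seed coats, against 8944, 6983, and 1373 CPM in hulled ones. The part of this difference in the contrast was not tested. Of 23184 genes, 1039 (4.48%) had a higher and 796 (3.43%) a lower hulled change. Among the 3147 genes called higher in hulled seed coats the contrast was positive and called in 335 and negative and called in 98. Among the 2821 called lower it was positive in 170 and negative in 203, and among all 22105 genes tested between the hulled stages, in 998 and 768. As the contrast holds the same hulled difference by which these genes were called, the selection itself favours contrasts in the direction of the call.

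Of the SCW orthologs, 7 of 55 had a higher hulled change and 2 a lower one. CesA4 was at 15.2, 13.2, and 12.8 CPM in hull-less seed coats at 20 DAP and 20.0, 20.5, and 16.3 CPM at 10 DAP, so that its contrast was 2.48 (SE 0.48, adjusted p 0.0111). F8H/FRA8 was at 0.595, 0.115, and 0.132 CPM in hull-less seed coats at 20 DAP and 0.951, 1.71, and 1.80 CPM at 10 DAP, with a contrast of 5.14 (SE 1.06, adjusted p 0.0140), and that of CesA7 was 3.82 (SE 1.07, adjusted p 0.0476). FLA12 had 0 counts in these hull-less libraries, and its contrast could not be estimated with any precision. MIDD1 had a deeper drop in level in hull-less seed coats, with 4.52, 4.097, and 3.22 CPM at 20 DAP and 169, 192, and 157 CPM at 10 DAP, a contrast of 3.35 (SE 0.48, adjusted p 0.00233). CpNST1 transcript was at 141, 156, and 188 CPM at 20 DAP and 14.2, 13.3, and 25.3 CPM at 10 DAP in hull-less seed coats, and its contrast of -3.05 missed the threshold (SE 0.93, adjusted p 0.0651).

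Outside the wall genes, KIN-UB was at 5.71, 5.14, and 3.35 CPM in hull-less seed coats at 20 DAP and 7.39, 10.1, and 7.197 CPM at 10 DAP, with a contrast of 3.29 (SE 0.38, adjusted p 0.000792), and 11 of 83 kinesins had a higher hulled change and 0 a lower one. The flavonol synthase/flavanone 3-hydroxylase was at 28.1, 29.1, and 6.64 CPM at 20 DAP and 46.8, 32.6, and 40.3 CPM at 10 DAP, with a contrast of 4.83 (SE 0.89, adjusted p 0.00869). UFGT3 differed more between stages in hull-less seed coats, at 738, 646, and 861 CPM at 20 DAP and 14.9, 15.9, and 18.1 CPM at 10 DAP, with a contrast of -2.62 (SE 0.48, adjusted p 0.00851). ACO1 was higher at 20 DAP in both accessions and by more in hulled seed coats, since hull-less ones had 334, 221, and 119 CPM at 20 DAP and 16.5, 10.9, and 4.72 CPM at 10 DAP (contrast 4.83, SE 0.67, adjusted p 0.00198). Photosystem genes had 2 of 70 with a higher hulled change and 8 with a lower one, and their summed level in hull-less seed coats was 12197, 12364, and 13658 CPM at 20 DAP and 2200, 1762, and 3072 CPM at 10 DAP. For SWEET10 the contrast was 0.02, with a wide SE of 0.70.

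**Figure D5:**
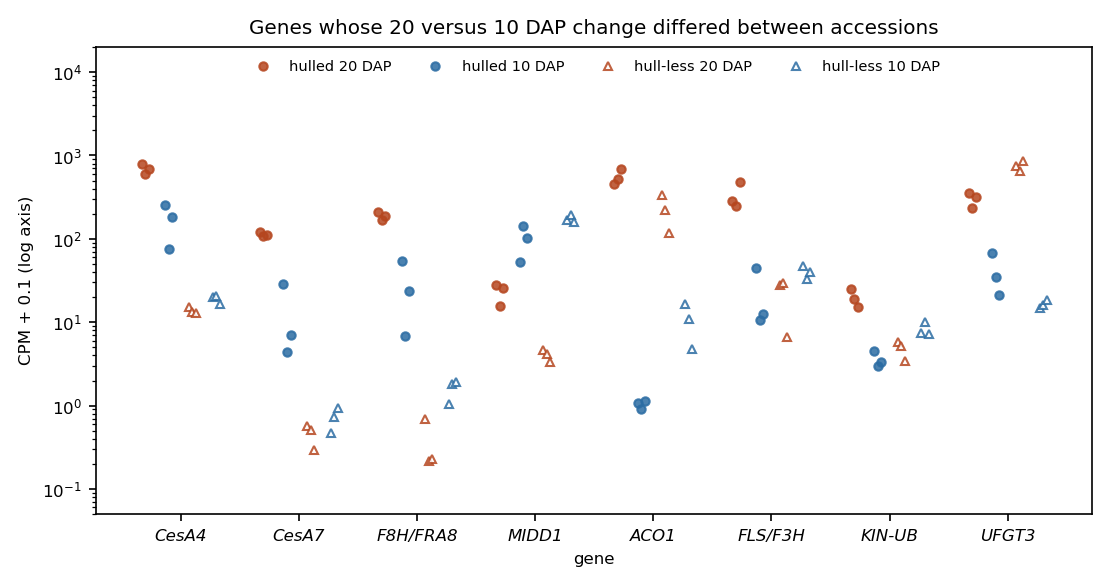
CPM (log axis) of 8 genes at 20 and 10 DAP, first in the hulled and then in the hull-less accession, 3 libraries each. CesA4, CesA7, F8H/FRA8, flavonol synthase, and KIN-UB are higher at 20 than at 10 DAP in hulled seed coats and not in hull-less ones, while MIDD1 is lower and UFGT3 higher at 20 DAP in both accessions, each by more in hull-less seed coats.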

How the data were processed

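Total RNA of seed coats was sequenced on an Illumina platform. The authors removed low-quality reads, mapped the rest to the zucchini genome, and deposited a whole-number count for each gene and library, not normalized. The counting tool is not given in the sources used here. The deposited FPKM values were made by the authors with Cufflinks and served only for levels between genes and as an alternative. The table also holds the authors' own group means, fold changes, and p-values for hull-less against hulled seed coats, which were not used. Gene names come from the deposited descriptions and the study's ortholog table. Positions are those of the deposited table, with LG for linkage group.

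Counts of the 6 hulled libraries were filtered (filterByExpr), TMM-scaled, and tested with edgeR's quasi-likelihood test, whose name also stands in the submitters' processing notes. The accession contrast used 12 libraries. SE is the absolute log2 fold change over the square root of F. CPM is scaled by TMM over 18 libraries. A fold against a stage with no counts uses a floor of 3 counts in a single library, as the highest such CPM among the stage's libraries. It covers counting error only. Where 1 to 3 counts were present, exact counting intervals are given.

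Members and lists were chosen with earlier results of these data known. Named genes are (a) the 12 highest and 12 lowest log2 fold changes among called genes whose stages did not overlap and whose count averaged 100 or more, (b) called SCW orthologs and *CpNST1*, (c) of each list up to 4 called members with the largest change likewise averaging 100 or more, and the member with the highest mean CPM, (d) the 6 highest and 6 lowest called contrasts, and (e) the 10 genes with the highest FPKM at 20 DAP. SCW orthologs, subfamily examples, and YABBY4 that were not called, and TTG1, were named after their values were seen. The alternatives covered other scaling (upper-quartile, RLE), DESeq2, 2 count filters, a fit of all 18 libraries, a replicate block, dropping the fold limit, limma on FPKM logged with pseudocount 1 or 0.1, leaving out each library, and, chosen after seeing the data, 20 DAP replicate 3 alone. The work used Python 3.11.15 and R 4.3.3 with edgeR 4.0.16, limma 3.58.1, DESeq2 1.42.0, pandas 2.3.3, SciPy 1.17.1, and matplotlib 3.10.9. The statistics were tested on simulated data.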

Additional observations from a re-analysis of the deposited data

Results flagged for a closer look

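The hulled and hull-less changes from 10 to 20 DAP differed in 1039 genes with a higher and 796 genes with a lower hulled change, each by a test of the difference itself (the accession contrast in edgeR's quasi-likelihood test). The 6 highest and 6 lowest contrasts among genes with a mean count of at least 100 are given here. In each of them 1 hull-less stage was at or near 0, so the size of the contrast depends on the prior count of the fit.

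Each of the 6 highest had a hull-less level at or near 0 at 20 DAP. The RING-H2 finger gene ATL54 (Cp4.1LG11g04460) had a contrast of 10.77, with 52.3, 49.1, and 42.6 CPM in hulled seed coats at 20 DAP and 16.5, 13.6, and 11.7 CPM at 10 DAP, against 0 counts at 20 DAP and 4.17, 4.83, and 2.77 CPM at 10 DAP in hull-less ones. IQ-DOMAIN 1 (Cp4.1LG14g03790) had a contrast of 10.49 and a locus outside the annotation on LG19 one of 10.21. The unnamed gene Cp4.1LG18g00860 followed with 9.76, a mitochondrial inner membrane protease gene (Cp4.1LG19g06350) with 9.69, and a locus outside the annotation on LG00 with 9.63.

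Each of the 6 lowest was at or near 0 in hull-less seed coats at 10 DAP. The unnamed gene Cp4.1LG19g03480 had a contrast of -15.32, with 942, 919, and 2680.3 CPM in hulled seed coats at 20 DAP and 551, 593, and 533 CPM at 10 DAP, against 1048, 1068, and 611 CPM at 20 DAP and 0 counts at 10 DAP in hull-less ones. A gene close to it on LG19, the serine/threonine kinase gene Cp4.1LG19g03500, had a contrast of -10.16 and also 0 counts in hull-less seed coats at 10 DAP. Another locus outside the annotation on LG00 had -13.16, an NADP-dependent glyceraldehyde-3-phosphate dehydrogenase gene (Cp4.1LG07g10870) -9.34, the MECDP synthase gene Cp4.1LG01g00230 of plastid isoprenoid synthesis -9.32, and an NKAP family gene (Cp4.1LG03g04240) -9.05.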

How the results depend on the processing

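No gene called between the hulled stages and called again in another setting changed direction. Leaving out single libraries gave 2001 (without 20 DAP replicate 2) to 4821 genes called higher (without 10 DAP replicate 1) and 1470 (without 20 DAP replicate 3) to 4040 called lower (without 10 DAP replicate 1). For the accession contrast the same gave 685 to 1581 genes with a higher and 472 to 1380 with a lower hulled change, both lowest without hulled 20 DAP replicate 2 and highest without hulled 10 DAP replicate 1. Genes called lower numbered 1758 by limma on log2(FPKM + 1) and 4540 with no fold limit. Contrasts called higher numbered 1573 by DESeq2, and those called lower 502 with at least 10 counts in every library and 1220 with all 18 libraries in 1 fit. In a fit of 20 DAP replicate 3 alone against the 10 DAP libraries, edgeR called 0 genes in either direction, with 5472 at an unadjusted p under 0.05, where the lone library is assumed to vary like the 10 DAP ones. With the replicate number as a block, 4886 genes were called (2777 higher, 2109 lower), 4722 of them shared with the 5968. The labels give no pairing. Deviations of same-numbered libraries from their stage means correlated at r of 0.276, 0.0822, and 0.115. Those of differently numbered libraries correlated at -0.220 to 0.138, the highest being 20 DAP replicate 3 with 10 DAP replicate 2. As deviations within a stage sum to 0, these values cannot decide whether libraries were paired. The cause of these changes was not tested beyond what each setting itself alters. With 3 libraries a stage and 1 that stands apart, adjusted p between 0.01 and 0.05 often crossed the threshold when a library was removed, and genes of few counts allow no fine fold.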
